A study of Arabidopsis thaliana with 12 samples.

Results

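The NPF2 genes of Arabidopsis thaliana that stand close together on the third chromosome encode membrane transporters of the nitrate and peptide transporter family. The cluster was taken as 7 loci, AT3G45650, AT3G45660, AT3G45680, AT3G45690, AT3G45700, AT3G45710 and AT3G45720, neighbours that the published family nomenclature names NPF2. The cluster was chosen for description with earlier results of these data known. Of the 7 loci, 5 had a probe set listed for a single gene, which makes 5 of the 22746 probe sets on the array other than controls. AT3G45650 and AT3G45660 share 1 probe set that is listed for both, so neither is described here. The genes were measured on 12 Affymetrix ATH1 arrays, 3 in each of 4 groups. The groups were the wild type of ecotype Col-0 and a mutant labelled arr10 arr12, each given trans-zeatin (tZ in the plots), a natural cytokinin, or its solvent DMSO. Titles of the treated wild-type arrays read CK and those of the treated mutant arrays read TZ. Their treatment labels read trans-zeatin, and both were taken as such. The mutant carries the T-DNA insertions SALK_098604 and SALK_054752, named for ARR10 and ARR12, type-B response regulators that act as transcription factors at the end of the cytokinin relay. All plants were seedlings grown upright on Murashige and Skoog agar for 2 weeks, and the tissue label is roots although the extraction text speaks of seedlings.

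Transporters of the NPF family move nitrate, chloride, hormones, glucosinolates or peptides across membranes. AT3G45650 is annotated as NAXT1, which releases nitrate from root cells, and its neighbours are its close relatives. As background from the literature on this species, AT3G45680 (NPF2.3) has been described as a nitrate transporter that loads the xylem under salt stress, AT3G45700 (NPF2.4) as a chloride transporter that loads the root xylem, and AT3G45710 (NPF2.5) as a chloride exporter of outer root cells. A transport role for AT3G45690 (NPF2.2) and AT3G45720 (NPF2.1) is not given here. Cytokinin is known to act on the uptake and allocation of nitrate in roots.

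The 7 loci span 28069 bases of chromosome 3, from 16758877 to 16786945 in the reference build TAIR10.1. AT3G45680 lies at 16770888 to 16773185, AT3G45690 at 16776268 to 16778150, AT3G45700 at 16778713 to 16781268, AT3G45710 at 16782588 to 16784772 and AT3G45720 at 16785046 to 16786945. AT3G45690 and AT3G45700 are 562 bases apart, and AT3G45710 and AT3G45720 are 273 bases apart. AT3G45700 and AT3G45710 are 1319 bases apart, with 1 other annotated gene between them. AT3G45660 and AT3G45680 are 6448 bases apart, with 4 other annotated genes between them. The position of the probes within each gene is not given in the sources used here, and cross-hybridisation between these relatives was not tested.

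The arrays were alike in scale, with a median signal of 39.3 to 41.6, and log2 values correlated at 0.987 to 0.993 across probe sets between arrays of a group. Neither ARR10 nor ARR12 had a single-gene probe set in the annotation used here, so the lesions were not checked at the transcript level. Of 10 root and 10 shoot marker genes, 2 of each had a probe set. The root pair, EXPA7 (an expansin of root hairs) and PRX57 (a class III peroxidase), had a summed signal of 709 to 973 in wild-type DMSO roots, 585 to 627 in wild-type trans-zeatin roots, 602 to 729.9 in mutant DMSO roots and 611 to 665 in mutant trans-zeatin roots. The shoot pair, RCA (rubisco activase) and LHCB4.1 (a light-harvesting protein), gave 440.0 to 558, 462 to 484, 331 to 349 and 345 to 362 in the same order. Taken singly, mean signal over the 12 arrays was 83.3 for EXPA7, 601 for PRX57, 178 for RCA and 243 for LHCB4.1.

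Within the cluster, AT3G45680, AT3G45700 and AT3G45710 had clear signal in every group, while AT3G45690 and AT3G45720 stayed near the floor of the array. Tests were run on probe sets whose signal averaged over 23.5 across the 12 arrays, the 40th percentile. The means of AT3G45680, AT3G45700 and AT3G45710 over the 12 arrays were 169, 122 and 429, and the lowest group mean of any of them was 59.5, so none entered the test through 1 group alone. The means of AT3G45690 and AT3G45720 were 4.63 and 7.98. Each comparison below is a difference of log2(signal + 6.65), an offset that shrinks the changes of dim genes.

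The first comparison asked how wild-type roots respond to trans-zeatin. AT3G45700, AT3G45680 and AT3G45710 all rose, by 2.84-fold, 2.38-fold and 1.59-fold in mean signal. Across all probe sets tested, 3.78% rose by the same criterion, an adjusted p below 0.05. In bulk roots a change in the number of cells that hold a transcript cannot be told apart from a change in the amount per cell. The summed root markers were lower under trans-zeatin in the wild type (EXPA7 by -0.67, adjusted p = 0.0072; PRX57 by -0.37, adjusted p = 0.045, a call that 10 of the 23 alternatives did not give), and their part in these changes was not tested.

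AT3G45680 gave signals of 136, 127 and 131 with DMSO (131 ± 4.21, SD, n = 3) and of 274, 323 and 338 on the trans-zeatin arrays (312 ± 33.8). Every trans-zeatin array lay above every DMSO array, as it did for 16.2% of all tested probe sets. The log2 difference was 1.2 ± 0.10 (SE; adjusted p = 5.2e-06), with a 95% interval of 0.98 to 1.42.

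AT3G45700 gave 88.4, 84.6 and 74.8 under DMSO (82.6 ± 6.97, SD, n = 3) and 205, 237 and 262 under trans-zeatin (235 ± 28.6). The groups did not overlap, and the lowest treated array was far above the highest control. The log2 difference was 1.43 ± 0.14 (SE; adjusted p = 1.7e-05), with a 95% interval of 1.12 to 1.74. It ranked 18th of 13647 tested probe sets by size of rise, and AT3G45680 ranked 38th.

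AT3G45710 gave 340.3, 389 and 318 under DMSO (349 ± 36.2, SD, n = 3) and 517, 547 and 599 under trans-zeatin (555 ± 41.6), again with no overlap. Its log2 difference of 0.66 ± 0.14 (SE; adjusted p = 0.0083) was the smallest of these rises. The intervals of AT3G45710 (0.36 to 0.96) and of AT3G45700 do not meet.

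**Figure D1:**
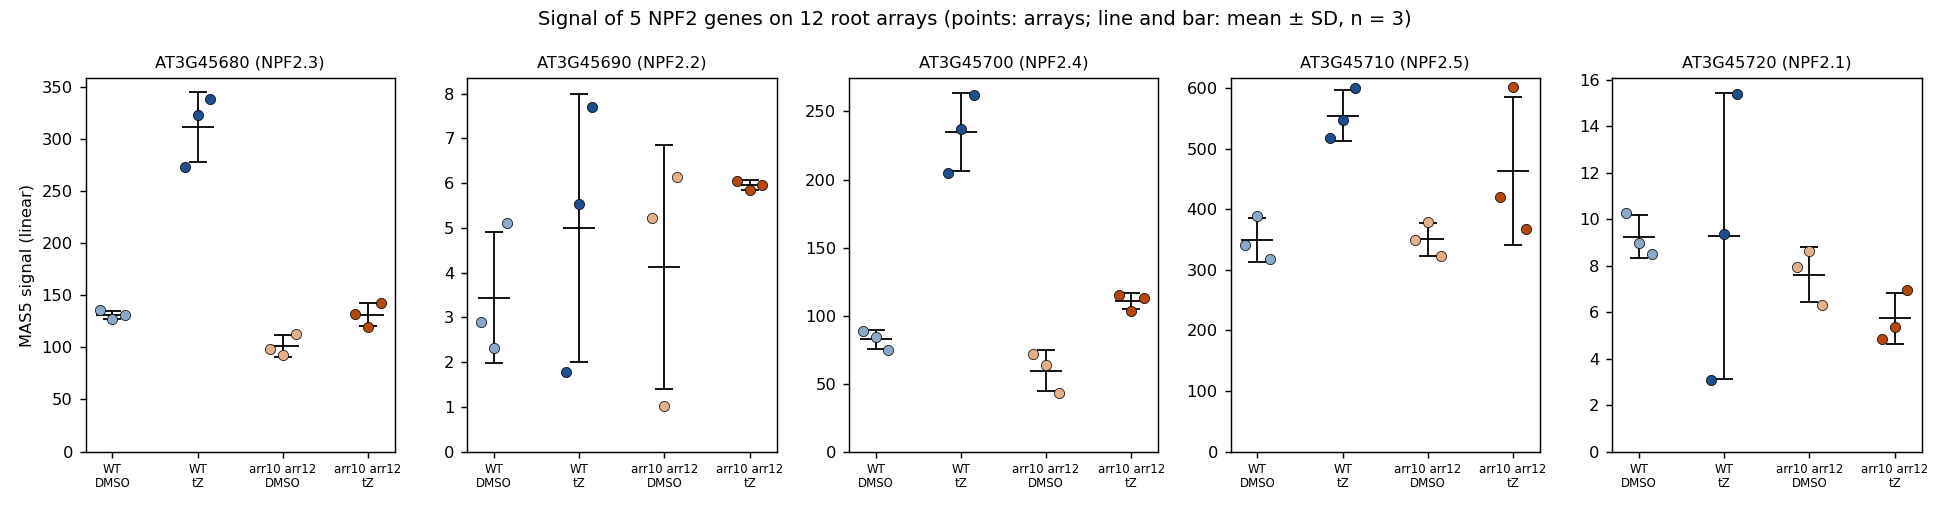
Signal of the 5 NPF2 genes with a probe set of their own, in order along the chromosome; the vertical axis is the linear MAS5 signal from 0, each point is 1 of the 12 arrays, and the line and bar give the mean ± SD of 3 arrays. For AT3G45680, AT3G45700 and AT3G45710 the wild-type trans-zeatin arrays lie above all wild-type DMSO arrays, while AT3G45690 and AT3G45720 stay at 15.4 or below on every array.

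The second comparison asked what response was left in arr10 arr12. AT3G45700 rose again, and it was the member that passed the test in the mutant, where 0.645% of tested probe sets rose. Its signals were 72.0, 63.8 and 42.7 under DMSO (59.5 ± 15.1, SD, n = 3) and 115, 104 and 113 under trans-zeatin (111 ± 6.11). All treated arrays lay above all control arrays, as they did for 6.35% of tested probe sets. The log2 difference was 0.85 ± 0.14 (SE; adjusted p = 0.0072), and mean signal was 1.86-fold higher. This call held in all 23 other settings tried, with adjusted p from 0.0045 to 0.049.

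AT3G45680 did not pass in the mutant. Its signals were 98.6, 92.8 and 113 under DMSO (102 ± 10.5, SD, n = 3) and 132, 119.7 and 142 under trans-zeatin (131 ± 11.2). The arrays did not overlap between treatments, although the difference was only 0.35 ± 0.10 on the log2 scale (SE; adjusted p = 0.14), with a 95% interval of 0.13 to 0.57 that is not adjusted for the number of genes. The mean was 1.29-fold higher with trans-zeatin.

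AT3G45710 did not pass either, with signals of 349, 379 and 324 under DMSO (350.4 ± 27.5, SD, n = 3) and 419, 601 and 368 under trans-zeatin (463 ± 123). The groups overlapped, and 1 trans-zeatin array, replicate 2, stood well above the other two. The log2 difference was 0.37 ± 0.14 (SE; adjusted p = 0.31), and without that array it was 0.17 (adjusted p = 0.74).

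The third comparison tested whether the responses differed between genotypes. No member passed, and 0.044% of tested probe sets did. AT3G45680 came closest: its response was smaller in the mutant by 0.85 ± 0.15 on the log2 scale (a difference of -0.85; adjusted p = 0.062), with an unadjusted 95% interval of -1.16 to -0.54, and it ranked seventh of all tested probe sets by p. It passed in 6 of 22 other settings, with adjusted p from 0.013 to 0.28 over all of them. Among these were the fits without wild-type trans-zeatin replicate 1 (adjusted p = 0.035) and without mutant trans-zeatin replicate 3 (adjusted p = 0.049). For AT3G45700 the responses differed by -0.58 ± 0.20 (adjusted p = 0.36) and for AT3G45710 by -0.29 ± 0.20 (adjusted p = 0.62). The intervals of these differences, -1.01 to -0.15 and -0.72 to 0.13, do not show that the genotypes respond alike.

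**Figure D2:**
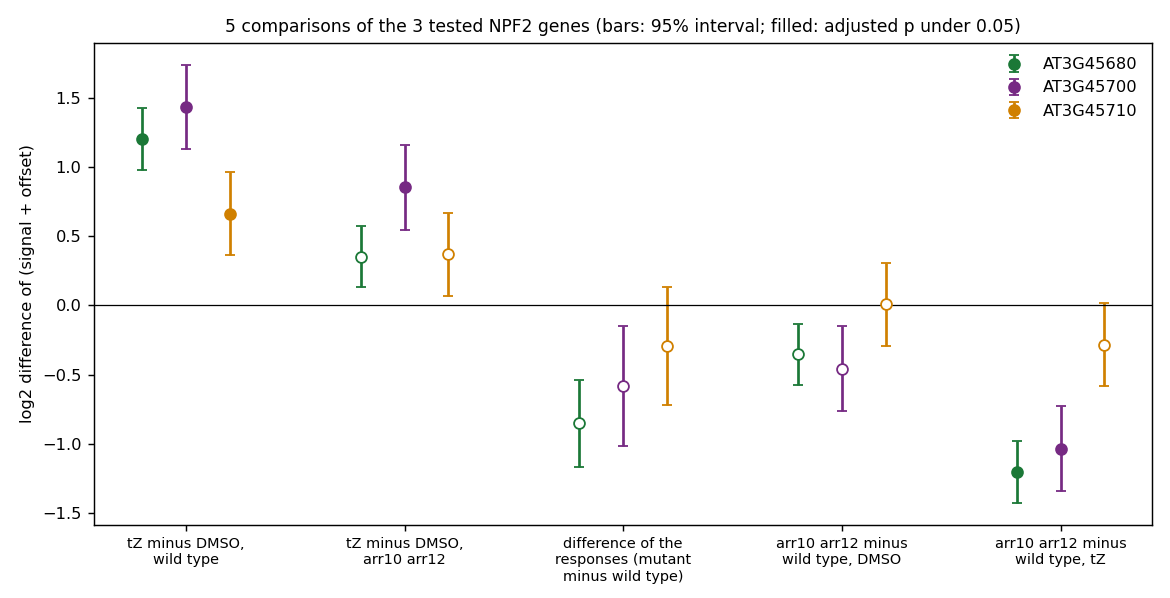
Log2 differences of the 3 tested NPF2 genes in the 5 comparisons; points are the estimates, bars the 95% intervals, and filled points passed at an adjusted p below 0.05. All 3 genes rose in wild type, AT3G45700 alone passed in the mutant, and AT3G45680 and AT3G45700 were lower in the mutant under trans-zeatin.

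The fourth comparison set arr10 arr12 against wild type without the hormone. None of these genes passed, against 5% of tested probe sets, 2.98% of them lower. AT3G45680 and AT3G45700 nevertheless had every mutant array below every wild-type array, as did 11.4% of tested probe sets, with differences of -0.35 ± 0.10 (SE; adjusted p = 0.063) and -0.46 ± 0.14 (adjusted p = 0.081). AT3G45680 passed in 3 of 23 other settings, among them the fit without mutant DMSO replicate 3 (-0.43, adjusted p = 0.042). Without that array the difference of AT3G45700 was smaller than its full value (-0.26), since the array holds its lowest signal. For AT3G45710 the means of 349 and 350.4 were nearly the same and the difference was 0.01, with an interval of -0.29 to 0.31. The summed shoot markers lay lower in the mutant under both treatments: RCA and LHCB4.1 passed under DMSO (-0.55 and -0.56, adjusted p = 0.013 and 0.0036), and under trans-zeatin RCA did (-0.50, adjusted p = 0.026) and LHCB4.1 did not (-0.34, adjusted p = 0.075). Of the 23 alternatives, 4 did not give the call of RCA under DMSO and 5 did not give it under trans-zeatin. The call of LHCB4.1 under DMSO held in all 23. The root marker EXPA7 was also lower in the mutant under DMSO (-0.55, adjusted p = 0.035), a call that 7 of the 23 alternatives did not give. The part of these markers in the differences between genotypes was not tested.

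The last comparison set the genotypes against each other under trans-zeatin, with the same wild-type and mutant treated arrays as above. AT3G45680 and AT3G45700 were lower in arr10 arr12, where 1.43% of tested probe sets were lower. The treated wild-type roots had 2.37 times the mean signal of the treated mutant for AT3G45680 and 2.1 times for AT3G45700. The log2 differences were -1.2 ± 0.10 (SE; adjusted p = 7.7e-06) and -1.04 ± 0.14 (adjusted p = 9.0e-04). By p, AT3G45680 ranked eighth of 13647 probe sets. With the replicate number as a block, 484 instead of 316 probe sets passed in this comparison, and no call of the cluster changed in it. In both genes all mutant arrays lay below all wild-type arrays, as for 9.71% of tested probe sets. AT3G45710 did not pass (-0.29 ± 0.14, adjusted p = 0.41), but did without mutant trans-zeatin replicate 2 (-0.49, adjusted p = 0.040), the array with its high signal of 601.

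The order of the 4 group means was not the same in these genes, and no test was made between genes. AT3G45680 was lowest in untreated mutant roots and highest in treated wild-type roots, and between them untreated wild type and treated mutant had the same mean of 131. The log2 difference between those middle groups was 0.00, with a 95% interval of -0.22 to 0.22. AT3G45700 had the same lowest and highest group, but treated mutant roots averaged above untreated wild type, by 0.40. The 95% interval of 0.09 to 0.70 is not adjusted for the number of genes. Those groups differ in both genotype and treatment, and they were not set against each other in the tests above. For AT3G45710 both untreated groups shared the lowest place, treated mutant roots overlapped with every other group, and treated wild-type roots were highest on average. For AT3G45680 and AT3G45700, the place of untreated mutant below untreated wild type rests on differences that did not pass. These orderings were compared after the values were seen.

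AT3G45690 and AT3G45720 had no signal that could be ordered. AT3G45690 gave 2.89, 2.33 and 5.1 in wild-type DMSO roots, 1.78, 5.53 and 7.69 in wild-type trans-zeatin roots, 5.23, 1.02 and 6.14 in mutant DMSO roots, and 6.06, 5.85 and 5.97 in mutant trans-zeatin roots. AT3G45720 gave 10.3, 8.99 and 8.5, then 3.09, 9.38 and 15.4, then 7.93, 8.62 and 6.32, then 4.86, 5.38 and 6.97 in the same order of groups. AT3G45690 exceeded the offset on 1 array, of treated wild type, AT3G45720 lay around it, and the groups overlapped in every pairing of the comparisons.

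In a fit of all 22746 probe sets without the filter, neither gene passed in any of the 5 comparisons. The shares of probe sets called there were 4.01% for trans-zeatin in wild type, 0.448% for trans-zeatin in the mutant, 0.0176% for the difference of the responses, 1.85% for genotype under DMSO and 1.19% for genotype under trans-zeatin. In wild type the trans-zeatin difference was 0.18 for AT3G45690 (95% interval -0.27 to 0.64) and -0.07 for AT3G45720 (-0.55 to 0.40), on a scale that the offset compresses at such levels. Detection calls were not used here, so whether either transcript was above background is not stated.

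The genes seen to rise are not all next to each other on the chromosome. AT3G45690, with its low signal, stands between AT3G45680 and AT3G45700, and AT3G45720 closes the cluster. Between AT3G45700 and AT3G45710 lies 1 other annotated gene, which has no single-gene probe set. At such signal a response of AT3G45690 or AT3G45720 could be missed, so the data do not show whether the run of rising genes is broken. Among the 10 annotated genes on each side and the 5 others inside the cluster, 8 had a single-gene probe set and 6 passed the filter. None of these 6 rose in wild type, against 3.78% of all probe sets. AT3G45730, the next gene after AT3G45720 with a probe set, fell with trans-zeatin in wild type, from 42.8 ± 5.99 to 24.7 ± 2.61 (SD, n = 3; log2 difference -0.65 ± 0.13, adjusted p = 0.0042). In the mutant it differed by 0.14 (adjusted p = 0.82), and the difference of its responses did not pass (0.79, adjusted p = 0.15). The other 5 tested neighbours, TET3 (a tetraspanin) among them, had wild-type differences from -0.18 to 0.25 and passed in no comparison.

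**Figure D3:**
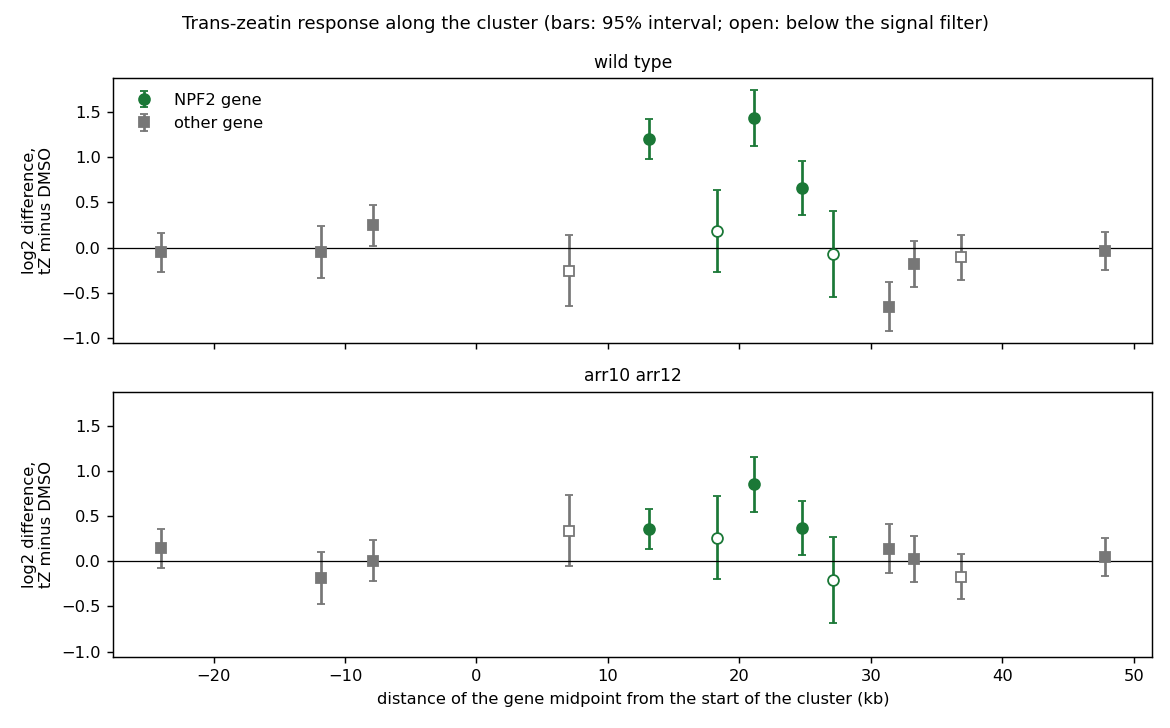
Trans-zeatin minus DMSO log2 difference of each gene with its own probe set, plotted against the distance of its midpoint from the start of the cluster in kilobases, for wild type (top) and arr10 arr12 (bottom); circles are NPF2 genes, squares other genes, bars 95% intervals, and open symbols genes below the signal filter. The rises of AT3G45680, AT3G45700 and AT3G45710 are flanked by the fall of AT3G45730 in wild type (-0.65).

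The rest of the NPF family was read beside the cluster. Of 46 NPF genes outside it, 29 had a single-gene probe set, 16 passed the filter, and the means of the 13 others were 0.767 to 17.7. In wild type 3 of the 16 rose with trans-zeatin and 1 fell (3.78% and 4.86% of all tested probe sets did), with a median log2 difference of 0.06 against 0.02 over all tested probe sets and a range of -0.58 to 0.53. AT2G40460 (NPF5.1) rose by 0.53 (adjusted p = 0.021), AT1G33440 (NPF4.4) by 0.51 (adjusted p = 0.030) and GTR2 (AT5G62680, NPF2.11), a glucosinolate transporter, by 0.32 (adjusted p = 0.026). AT1G68570 (NPF3.1), described as a carrier of nitrite and gibberellin, fell by 0.55 (adjusted p = 0.0099). The rises of AT3G45700, AT3G45680 and AT3G45710 held the first 3 places among the 19 NPF genes tested, and the gap from AT3G45710 to the next gene was not tested. These places are a description only, since the cluster and the list were chosen with earlier results of these data known.

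In the mutant none of the 16 rose with trans-zeatin, against 0.645% of all tested probe sets, and the median was 0.06. AT1G72140 (NPF5.12) had the highest value of the 16, 0.64, against 0.85 for AT3G45700, and the gap between them was not tested. No NPF gene passed in the difference of the responses, where the 16 ranged from -0.28 to 0.48.

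Between genotypes 4 of the 16 were lower in arr10 arr12 under DMSO, against 2.98% of all tested probe sets, and none was higher, with a median of -0.28 against 0.02 over all tested probe sets. They were AT1G72140 (-0.89, adjusted p = 0.0096), AT2G26690 (NPF6.2, a nitrate transporter of the leaf petiole, -0.47), AT1G68570 (-0.47) and GTR2 (-0.39). Under trans-zeatin AT1G72140 (-0.76, adjusted p = 0.028) and GTR2 (-0.50, adjusted p = 0.0036) were lower, 2 of the 16 against 1.43% of all tested probe sets. AT1G22550 (NPF5.16), which is among the 3 brightest of the 16, differed by -0.37 under DMSO and -0.44 under trans-zeatin and did not pass in either. The call of GTR2 under trans-zeatin held in all 23 other settings. Each of the other calls of NPF genes outside the cluster missed the threshold without at least 1 of the arrays. The differences kept their direction and much of their size. Leaving out single arrays gave 0.29 to 0.37 for GTR2 and 0.44 to 0.59 for AT1G33440 in wild type. Between genotypes under DMSO it gave -1.08 to -0.69 for AT1G72140 and -0.54 to -0.36 for AT1G68570. All 4 calls under DMSO were lost without wild-type DMSO replicate 1 and without mutant DMSO replicate 2. The 3 rises in wild type were lost without wild-type trans-zeatin replicate 2 and without wild-type DMSO replicate 2 or 3 for AT1G33440, AT2G40460 and GTR2 alike, and the fall of AT1G68570 without wild-type DMSO replicate 1 (adjusted p = 0.051). AT1G72140 under trans-zeatin did not pass without replicate 2 or 3 of treated wild type or replicate 1 or 2 of the treated mutant (adjusted p up to 0.12). Without the signal filter AT1G33440 in wild type, AT1G68570 and AT2G26690 under DMSO and AT1G72140 under trans-zeatin did not pass, nor did AT1G68570 and AT2G26690 in a fit of the DMSO arrays alone.

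**Figure D4:**
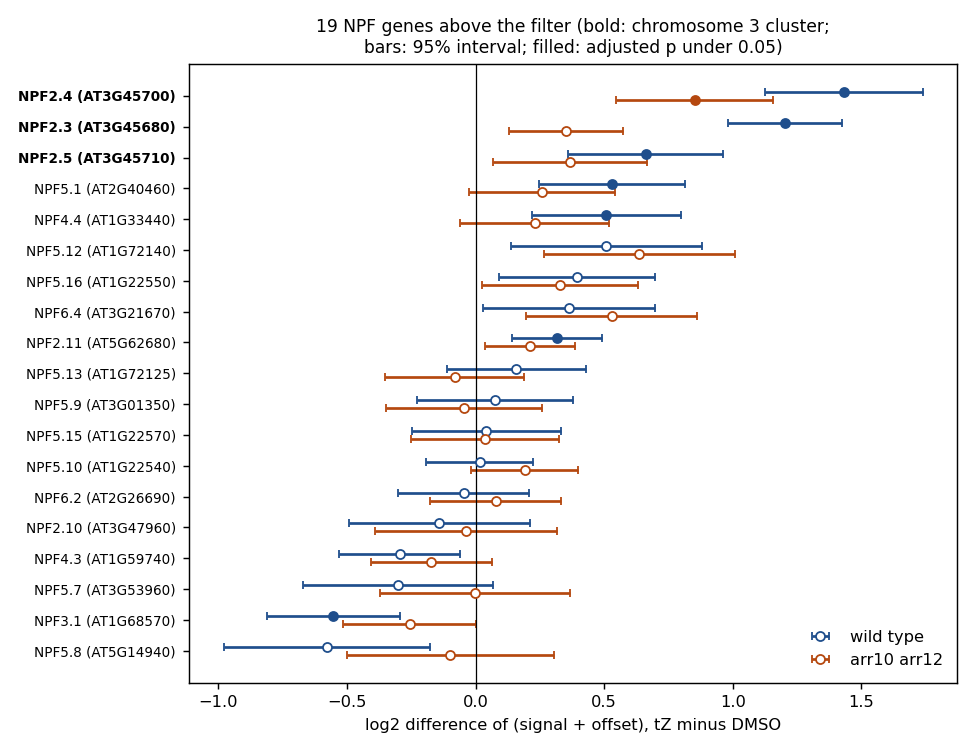
Trans-zeatin minus DMSO log2 difference of the 19 NPF genes above the filter, ordered by the wild-type value; bars are 95% intervals, filled points passed at an adjusted p below 0.05, and the cluster is in bold. AT3G45700, AT3G45680 and AT3G45710 are at the top at 1.43, 1.2 and 0.66, and AT3G45700 is the filled mutant point.

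Among 27 further genes for the uptake, channel transport and assimilation of nitrate and chloride, only NRT2.5, a high-affinity nitrate transporter gene, had a single-gene probe set. Its mean of 3.21 lay below the filter, and no other gene of that list was analysed here.

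Signal profiles over the 12 arrays were compared by Pearson correlation of log2 values with 7288 other single-gene probe sets above the filter, as a description in which the 4 groups set most of the spread. The profile of AT3G45680 was most like those of AT1G54120 (r = 0.94), AT4G15680 (GRXS4, a CC-type glutaredoxin, r = 0.94), AT4G25410 (a basic helix-loop-helix factor, r = 0.93), AT2G43550 (r = 0.93) and AT3G45700 itself (r = 0.92). The profile of AT3G45700 was most like those of AT5G11420 (r = 0.97), USP (AT5G52560, a UDP-sugar pyrophosphorylase, r = 0.96), AT4G03610 (r = 0.96), CYP84A4 (AT5G04330, a cytochrome P450, r = 0.96) and AT5G47950 (an acyltransferase of the BAHD family, r = 0.95). AT3G45710 correlated with AT3G45700 at 0.81 and with AT3G45680 at 0.69.

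These 9 genes outside the cluster were chosen for their likeness, so their differences are given as a description. Their wild-type log2 differences were 1.97 for AT4G15680, 1.43 for AT4G25410, 1.21 for AT4G03610, 1.12 for AT5G11420, 0.99 for AT5G47950, 0.76 for USP, 0.73 for CYP84A4, 0.71 for AT1G54120 and 0.56 for AT2G43550. In the mutant the genes most like AT3G45680, itself at 0.35, were at 0.28 for AT1G54120, 0.63 for AT4G15680, 0.88 for AT4G25410 and 0.35 for AT2G43550. Those most like AT3G45700, itself at 0.85, were at 0.55 for AT5G11420, 0.41 for USP, 0.75 for AT4G03610, 0.41 for CYP84A4 and 0.71 for AT5G47950. Differences between genes were not tested.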

How the data were processed

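Values are signal intensities that the authors made with MAS5 and deposited unlogged; MAS5 and GCOS are named in the submitters' processing notes, with versions not given in the sources used here. The authors' scaling was read from the values, whose 2%-trimmed mean was 99.2 to 99.3 on every array, and no further normalization was applied. The table held 22810 probe sets, and 64 controls were left out. The offset of 6.65 is the 25th percentile of all values, and 13647 probe sets passed the filter.

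Probe sets were named through the platform annotation (14016 entries, 13513 with 1 gene and 503 with several) and the TAIR10.1 gene table, which gave 13436 a locus. NPF names that the table lacks follow the published family nomenclature.

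Tests used limma 3.58.1 under R 4.3.3: a mean per group over all 12 arrays, moderation with an intensity trend, 2-sided tests, and p-values adjusted by Benjamini and Hochberg over the whole tested table, at a threshold of 0.05. On data simulated for the wild-type comparison with 13647 probe sets, the test recovered 71.6% of changes of 0.5 and 99.6% of changes of 1 (log2). The simulated noise was normal and independent, and fewer probe sets were changed than passed in the data, so recovery in the data may differ. The other comparisons were not simulated. The cluster, lists, rules and tests were chosen with earlier results of these data known. Named genes were all cluster members, the 5 most alike to AT3G45680 and to AT3G45700, up to 6 passing and 3 brightest genes of each list, and neighbours. The alternatives were other offsets, filters, scalings, moderation, array weights, fits of fewer arrays, a replicate block and leaving out each array. The main tests were unpaired in every comparison, and the replicate number entered only as the block among the alternatives. Replicate numbers met a criterion for pairing where the deviations of every same-numbered pair correlated over 0.1. This held for treated wild type against treated mutant (0.137, 0.156 and 0.136) and not in general, where same-numbered arrays correlated at -0.07 to 0.34 (median 0.11, against -0.06 for other numbers), over 0.1 in 9 of 18 pairs; the labels name nothing that a number shares. Nothing in the labels ties the replicates to separate plants or cultures. The p-values thus reflect spread among arrays that may be technical, and having 3 arrays a group limits precision. The sources used here do not give the dose or time of trans-zeatin.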

Additional observations from a re-analysis of the deposited data

How the results depend on the processing

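With 23 alternatives, 526 of 550 values of the cluster kept their direction and their side of the threshold. That count includes AT3G45690 and AT3G45720, which lie near the floor and passed in no setting, so it says less about the genes with clear signal. The wild-type rises of AT3G45680, AT3G45700 and AT3G45710, the rise of AT3G45700 in arr10 arr12 and the lower levels of AT3G45680 and AT3G45700 in the treated mutant held in all 23. The smaller response of AT3G45680 in the mutant passed with offsets of 16 (-0.82) and 32 (-0.78), with array weights (-0.91) and with the replicate number as a block (-0.85, adjusted p = 0.032), and ranged from -0.94 to -0.77 when single arrays were left out. Its difference under DMSO passed with array weights (-0.33) and with the block (-0.35, adjusted p = 0.043), and ranged from -0.43 to -0.30 without single arrays. AT3G45710 under trans-zeatin ranged from -0.49 to -0.14 between genotypes without single arrays. The causes were not tested. Uncalled differences near 0 changed sign. AT3G45710 under DMSO was -0.0069 with median centring, -0.054 with array weights and -0.056 to 0.087 without single arrays. Without single arrays, AT3G45690 ranged from -0.15 to 0.25 for the difference of the responses, from -0.070 to 0.30 between genotypes under DMSO and from -0.068 to 0.32 under trans-zeatin, and AT3G45720 from -0.35 to 0.24 in wild type and from -0.45 to 0.14 for the difference of the responses.

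Counts over all probe sets moved more. With array weights they were 2203 against 1179 for wild type, 27 against 6 for the difference of the responses and 1321 against 682 under DMSO. With the replicate block they were 290 against 169 for the mutant response and 484 against 316 under trans-zeatin. Without the filter they were 102 for the mutant response and 420 under DMSO, and a fit of the mutant arrays alone gave 79. Leaving out single arrays gave 575 to 1364, 67 to 197, 4 to 10, 168 to 909 and 156 to 372 in the 5 comparisons in the order of the report; they moved by over 1.5 times without any one treated wild-type array or wild-type DMSO replicate 1 or 2 for the first, mutant trans-zeatin replicate 2 or mutant DMSO replicate 2 or 3 for the second, mutant trans-zeatin replicate 2 for the third, wild-type or mutant DMSO replicate 1 or 2 for the fourth, and any one treated wild-type array for the last. In the other 4 comparisons the replicate numbers did not meet the criterion for pairing. Over all groups 9 of 12 arrays correlated best with an array of their own number, which is a hint from the data and not from the design. The block changed no other call of the cluster. AT3G45690 and AT3G45720 are limited by signal near the floor.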
